A study of Mus musculus with 6 samples.

Results

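Interleukins are secreted cytokines that leukocytes and tissue cells use to signal to each other, and interleukin receptors are the surface chains that bind them. The probe sets described here were all those on the array whose gene symbol, in the platform annotation, begins with Il and a digit. The chains that bind IL-4 and IL-13 (Il4ra, Il13ra1, Il13ra2) and the shared chain Il2rg were left out. This gave 106 probe sets of 70 genes, out of 45037 probe sets on the array. They fell into 39 probe sets of 32 ligand genes, 59 of 33 receptor genes, and 8 of 5 genes that are inhibitors or neither (the receptor antagonists Il1rn and Il1f5, the IL-18 binding protein Il18bp, the amino acid oxidase Il4i1 and the noncoding Il1bos).

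Whole lung RNA came from adult BALB/c mice of 3 genotypes, with 2 arrays each and 4 mice pooled for each array. The first genotype lacked the IL-4 receptor and carried 1 copy of an SMP8-IL4R transgene, which expresses that receptor from a promoter the design text calls smooth muscle-specific (IL4R -/-, SMP8-IL4R +/-, here IL4R KO + SMP8-IL4R). The second lacked the receptor and the transgene (IL4R -/-, here IL4R KO), and the third was wild type at the receptor with no transgene (IL4R +/+, here WT). Below, receptor-deficient stands for both IL4R -/- groups, although the first of them carries the receptor transgene. All 3 groups received 2 to 3 µg of IL-13 into the trachea once a day for 7 days, with lungs collected 24 hours after the last dose. No group was untreated, so the comparisons show what depended on receptor genotype while IL-13 was present.

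IL-13 is a type 2 cytokine that signals through a receptor containing the IL-4 receptor alpha chain and through the transcription factor STAT6. Other type 2 cytokines act beside it in the airway. IL-33 and IL-25 are alarm signals of epithelium and stroma that act on type 2 lymphoid cells, and those cells make IL-5, IL-9 and IL-13. IL-18, IL-1 and the IL-36 cytokines belong to the IL-1 family together with IL-33, and IL-6 acts through the shared chain Il6st.

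Pools of the same genotype differed in the signal of cell type markers. On average, 8 neutrophil markers read 10.72 and 8.73 in IL4R KO + SMP8-IL4R, 9.81 and 9.04 in IL4R KO, and 8.61 and 8.89 in WT, on the log2 scale of RMA (the array summary used by the authors). On average, 5 NK cell markers read 7.36 in pool 1 of IL4R KO and 8.60 in its pool 2, with 7.78 to 7.88 in the remaining arrays. Hepatocyte markers averaged 9.56 in pool 1 of IL4R KO, 9.17 in pool 2 of WT, and 5.81 to 6.13 elsewhere. Markers of alveolar type 2 cells averaged 13.57 to 13.72 in all arrays, as the lung label asks. In bulk RNA, fewer cells of a type and less RNA per cell cannot be told apart.

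Il18 and Il33 were the members that passed the test in both receptor-deficient groups against WT. Their start-site regions are shown because these genes carry the result and because STAT6 binds sites of the form TTCNNNNGAA, printed in capitals. The sequences run from 250 bases before to 50 bases after the start of transcription, on the plus strand, from RefSeq (GRCm38.p6), and Il33 has 2 start sites in that table. They lie at chr9:50554450-50554749 for Il18 and at chr19:29924863-29925162 and chr19:29945540-29945839 for Il33.
Il18: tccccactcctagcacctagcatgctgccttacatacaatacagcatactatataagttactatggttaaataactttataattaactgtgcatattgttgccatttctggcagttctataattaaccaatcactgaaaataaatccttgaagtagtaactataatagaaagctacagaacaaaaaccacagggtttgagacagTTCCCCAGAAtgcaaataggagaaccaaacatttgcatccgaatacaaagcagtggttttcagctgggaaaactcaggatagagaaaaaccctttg
Il33, start site 1: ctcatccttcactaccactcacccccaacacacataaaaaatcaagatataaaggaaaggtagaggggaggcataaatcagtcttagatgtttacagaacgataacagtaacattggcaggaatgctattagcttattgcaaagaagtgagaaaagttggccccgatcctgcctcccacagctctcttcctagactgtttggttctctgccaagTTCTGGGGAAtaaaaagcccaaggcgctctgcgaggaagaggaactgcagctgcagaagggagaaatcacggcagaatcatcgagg
Il33, start site 2: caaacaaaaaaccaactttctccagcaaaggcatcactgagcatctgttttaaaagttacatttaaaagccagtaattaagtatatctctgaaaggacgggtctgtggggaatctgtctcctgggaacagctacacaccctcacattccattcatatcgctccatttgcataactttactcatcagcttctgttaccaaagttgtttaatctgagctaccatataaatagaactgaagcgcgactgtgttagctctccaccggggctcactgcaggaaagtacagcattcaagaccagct

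The match began 46 bases before the start of Il18 and 36 bases before start site 1 of Il33, and start site 2 held none. The motif is its own reverse complement, so 1 search covers both strands. It occurred in 6.95% of 32851 start-site regions of this length, and in 17 of 67 regions of member genes (25.4%). By gene it was found for 14 of 54 member genes (25.9%) and for 8.01% of all genes with such a region. The related STAT form TTCNNNGAA, with a shorter spacer, was in 10 of the 67 regions (14.9%) against 8.30% of all. The Il6 region held neither. These are matches of letters and were not tied to binding here.

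Il18 encodes an IL-1 family cytokine that drives interferon responses. It was higher in both receptor-deficient groups than in WT. Its values were 10.04 and 9.92 in IL4R KO + SMP8-IL4R, 9.75 and 9.97 in IL4R KO, and 8.35 and 8.44 in WT. All 4 receptor-deficient arrays lay above both WT arrays, while the 2 receptor-deficient groups overlapped. The difference was 1.46 ± 0.10 (SE) between IL4R KO and WT, a 2.76-fold higher level (limma adjusted p = 0.00169). Between IL4R KO + SMP8-IL4R and WT it was 1.58 ± 0.10, or 2.99-fold (limma adjusted p = 0.00131). Between IL4R KO + SMP8-IL4R and IL4R KO it was 0.12, with a 95% interval, not adjusted for the number of probe sets, from -0.12 to 0.36 (limma adjusted p = 0.670).

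Il33 moved the other way. Its values were 11.44 and 11.23 in IL4R KO + SMP8-IL4R, 10.99 and 10.84 in IL4R KO, and 12.12 and 12.19 in WT. The 3 groups did not overlap, with WT highest and IL4R KO lowest. Il33 fell by 1.24 in IL4R KO against WT (SE 0.10), to 0.423 times the WT level (limma adjusted p = 0.00281). It was also lower in IL4R KO + SMP8-IL4R than in WT, by a difference of -0.82 ± 0.10 (limma adjusted p = 0.0181). That second call was lost without either IL4R KO + SMP8-IL4R pool (-0.92 without pool 1 and -0.72 without pool 2), without either WT pool (-0.85 and -0.78) and without both arrays rich in hepatocyte transcripts (-0.78). IL4R KO + SMP8-IL4R exceeded IL4R KO by 0.42 ± 0.10 (95% interval 0.19 to 0.66), which did not pass over all probe sets (limma adjusted p = 0.301).

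Some marker means differed between the groups beside these genes. The mean of 6 B cell and plasma cell markers was 9.89 and 9.87 in IL4R KO + SMP8-IL4R, 9.86 and 10.18 in IL4R KO, and 8.90 and 8.99 in WT, so it lay above WT in both receptor-deficient groups, as Il18 did, and 3 of the 6 passed in IL4R KO and 2 in IL4R KO + SMP8-IL4R. The mean of 9 macrophage markers was 10.16 and 9.97 in IL4R KO + SMP8-IL4R, 10.18 and 10.05 in IL4R KO, and 10.45 and 10.54 in WT. Its members went both ways, with 2 passing higher and 3 lower in IL4R KO against WT, and 1 higher and 3 lower in IL4R KO + SMP8-IL4R against WT. The mean of 8 smooth muscle markers was lowest in IL4R KO (10.27 and 10.28), as Il33 was, with 10.79 and 10.76 in WT. Unlike Il33, this mean was highest in IL4R KO + SMP8-IL4R, at 10.94 in the lower pool. By the test, 5 of the 8 were lower in IL4R KO than in WT. The mean of 6 fibroblast markers was highest in WT (12.44 and 12.50) and lowest in IL4R KO (12.27 and 12.31). It was 12.33 and 12.39 in IL4R KO + SMP8-IL4R, the order of Il33. Against WT, 1 passed higher and 2 lower in IL4R KO, and 1 lower in IL4R KO + SMP8-IL4R. The mean of 6 dendritic cell markers was 7.55 to 7.80 in the receptor-deficient arrays and 7.89 and 7.98 in WT. Of these, 1 passed lower in IL4R KO and 2 in IL4R KO + SMP8-IL4R. The list was split. Batf3 (-1.78 in IL4R KO and -1.71 in IL4R KO + SMP8-IL4R) and Cd209a (-0.60 and -0.86) were lower than WT. By group means Ccr7, Flt3, Xcr1 and Zbtb46 were higher than WT in both receptor-deficient groups. The mean of 5 eosinophil markers was 5.49 to 5.79 in the receptor-deficient arrays and 5.83 in both WT arrays. Its markers went both ways, 3 were dim on all arrays, and 1 passed lower in each receptor-deficient group. Means of alveolar type 2 markers (13.57 and 13.61) and club cell markers (14.02 and 13.96) were lowest in WT. In the receptor-deficient arrays they were 13.67 to 13.72 and 14.04 to 14.16, with 1 club cell marker passing higher in IL4R KO. The part of these cells in the Il18 and Il33 values was not tested.

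**Figure D1:**
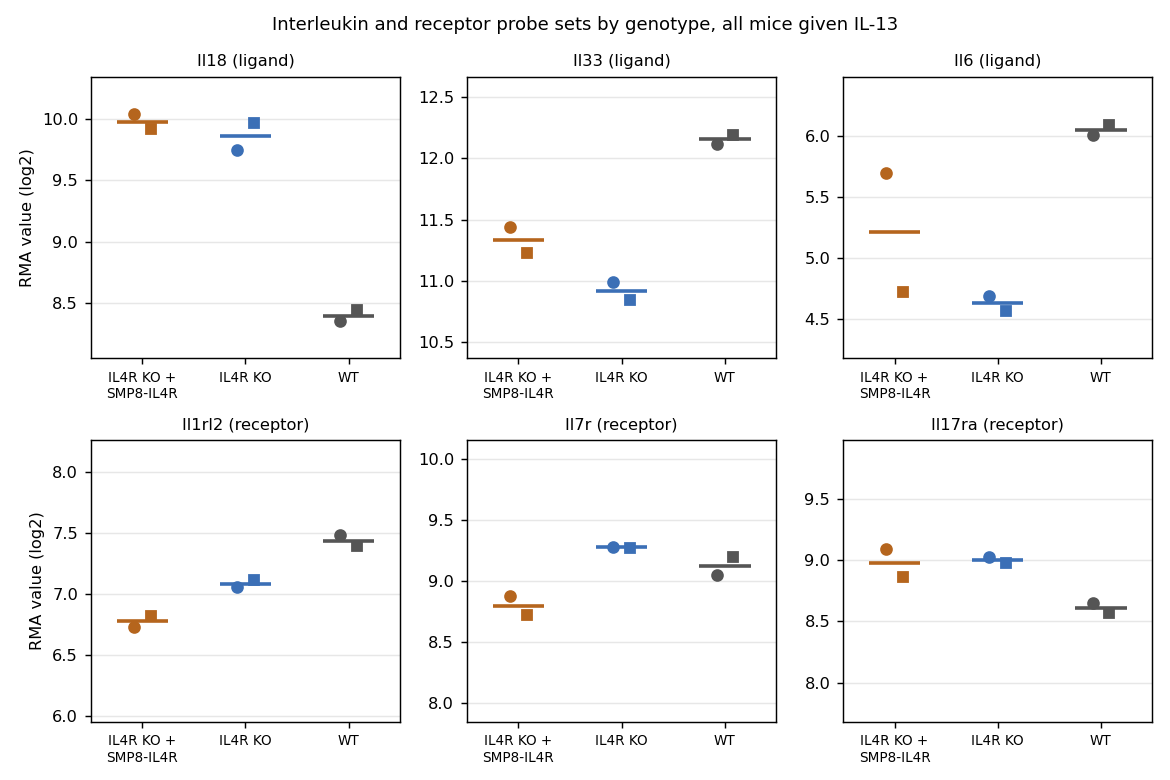
RMA values (log2, vertical axes spanning the same range) of 6 probe sets in IL4R KO + SMP8-IL4R, IL4R KO and WT lungs; circles are pool 1, squares pool 2 and lines group means. Il18 lies at 9.75 to 10.04 in the receptor-deficient arrays and 8.35 to 8.44 in WT, whereas Il33 is highest in WT at 12.12 and 12.19.

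Counted over all members, 2 of 106 probe sets passed between IL4R KO and WT (adjusted p under 0.05 over all 45037 probe sets), with Il18 higher and Il33 lower. The same test called 1.58% of all probe sets, 0.577% higher and 0.999% lower. Both calls were ligands (2 of 39, 5.13%), and 0 of 59 receptors passed. At an unadjusted p under 0.05, 13 ligand probe sets were called, 4 higher and 9 lower, and 13 receptor probe sets, 8 higher and 5 lower. The higher ligand probe sets belonged to Il18 and Il16 only. The receptor counts held both probe sets of Il17ra (higher) and of Il1rl2 (lower). Among all probe sets those shares were 7.88% higher and 8.17% lower, against 10.3% and 23.1% of ligand probe sets and 13.6% and 8.47% of receptor probe sets. The groups did not overlap for 53 members (50%), close to the 45.8% of all probe sets. The median difference was -0.050 for ligands and 0.028 for receptors, and -0.001 for all probe sets.

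Between IL4R KO + SMP8-IL4R and WT, 3 members passed, Il18 higher and Il33 and the receptor gene Il1rl2 lower. The share of all probe sets called was 1.04%, with 0.273% higher and 0.770% lower. At an unadjusted p under 0.05, 8 members were higher (7.55%, against 7.46% of all probe sets) and 18 lower (17.0%, against 7.88%). The groups did not overlap for 57 members, 53.8%, against 54.7% of all. Median differences were 0.004 for ligands and -0.026 for receptors, with -0.004 for all probe sets. Both comparisons with WT share the same WT arrays.

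Between IL4R KO + SMP8-IL4R and IL4R KO, which asks what the transgene's receptor added, no member passed in limma. Of all probe sets 0.0155% passed. At an unadjusted p under 0.05 there were 5 members higher (4.72%) and 6 lower (5.66%), against 5.97% and 5.37% of all probe sets. The 5 were 4 ligands (Il33, Il7, Il17b and Il23a) and the receptor Il17re, and the 6 were all receptors (2 probe sets of Il7r, and 1 each of Il1rl2, Il6ra, Il2ra and Il1rap). Il17b and Il17d, cytokines of the IL-17 family, gave 0.27 on the 1 probe set of Il17b and 0.33 and 0.05 on the 2 of Il17d (limma adjusted p = 0.354, 0.460 and 0.851). Il23a, a subunit of IL-23, gave 0.25 (limma adjusted p = 0.426). Il17re gave 0.32, 0.02 and -0.02 on its 3 probe sets, and Il6ra, the IL-6 receptor chain, -0.27 and -0.23 on its 2 (limma adjusted p = 0.314 and 0.336 for the first of each). The groups did not overlap for 40 members (37.7%), against 42.1% of all probe sets. The median difference was 0.019 for ligands and -0.054 for receptors, with -0.008 for all probe sets.

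**Figure D2:**
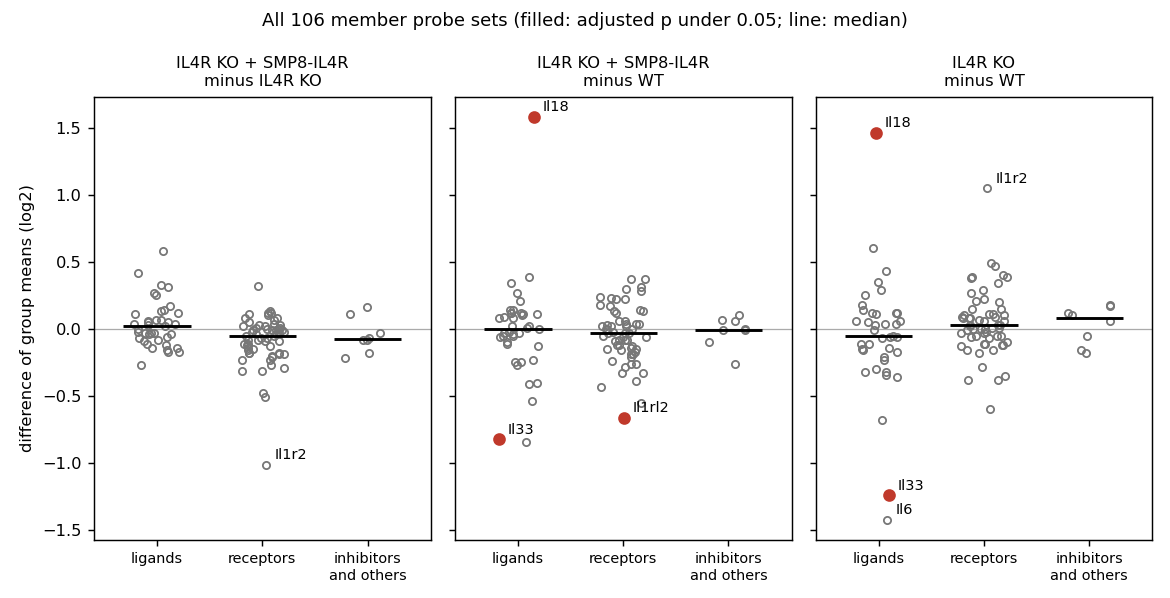
Differences of group means (log2) for the 106 member probe sets in the 3 comparisons, split into ligands (39), receptors (59) and inhibitors and others (8); filled points passed at an adjusted p under 0.05 and lines are medians. Il18 is the highest ligand in both comparisons with WT, Il33 and Il6 are the lowest ligands, and no point is filled between IL4R KO + SMP8-IL4R and IL4R KO.

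The ligand Il6, an inflammatory cytokine of macrophages and stromal cells, had a wide difference that did not pass. Its values were 5.70 and 4.72 in IL4R KO + SMP8-IL4R, 4.69 and 4.57 in IL4R KO, and 6.01 and 6.09 in WT. Every receptor-deficient array lay below WT, and IL4R KO + SMP8-IL4R pool 1 lay well above the other 3. Those 3 values were below 5.30, the lower quartile of all values on these arrays, where RMA may understate differences. The difference between IL4R KO and WT was -1.42 ± 0.28 (limma adjusted p = 0.0748). It passed without either IL4R KO + SMP8-IL4R pool (adjusted p = 0.00612 in both limma fits), which changes the shared spread and not the difference. Without IL4R KO + SMP8-IL4R pool 1, Il6 also passed between IL4R KO + SMP8-IL4R and WT, at -1.33 (limma adjusted p = 0.0209), where all arrays gave -0.84 (adjusted p = 0.240). The neutrophil marker mean was highest in that pool. It was next highest in IL4R KO pool 1 (9.81), where Il6 was 4.69, and it was 8.61 and 8.89 in WT, where Il6 was highest. The part of neutrophil content in the Il6 values was not tested.

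Most of the remaining type 2 ligands gave low signals. Il4, Il5 and Il25 lay below the lower quartile in all 6 arrays. Il4, the cytokine that shares this receptor with IL-13, was 4.55 and 4.58 in IL4R KO + SMP8-IL4R, 4.77 and 4.64 in IL4R KO, and 4.54 and 4.65 in WT. Its difference between IL4R KO and WT was 0.11, with a 95% interval from -0.09 to 0.31. Il5, the growth factor of eosinophils, ranged from 4.14 to 4.30 over the 6 arrays, and its interval for the same difference was -0.14 to 0.23. Il13 itself ranged from 5.02 to 5.42, and its interval was -0.32 to 0.31. The instilled IL-13 was a protein, so it adds no Il13 transcript. Il9, a mast cell and goblet cell growth factor, ranged from 7.27 to 7.45, with an interval of -0.28 to 0.14.

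Il25, an epithelial activator of type 2 cells, was 4.79 and 4.86 in IL4R KO + SMP8-IL4R, 4.76 and 4.66 in IL4R KO, and 5.09 and 5.05 in WT. WT was highest, with a difference of -0.36 ± 0.08 in IL4R KO that did not pass (limma adjusted p = 0.0952). Il17a, the neutrophil-recruiting cytokine of T cells, was 5.14 and 5.09 in IL4R KO + SMP8-IL4R, 5.23 and 5.16 in IL4R KO, and 5.47 and 5.56 in WT. It did not pass either (limma adjusted p = 0.124 for IL4R KO against WT and 0.0826 for IL4R KO + SMP8-IL4R against WT). Its values in the receptor-deficient arrays were below the lower quartile.

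Other IL-1 family ligands showed smaller gaps. Il1a, an alarm cytokine, was 7.30 and 7.24 in IL4R KO + SMP8-IL4R, 7.41 and 7.36 in IL4R KO, and 7.61 and 7.75 in WT, again highest in WT (-0.41 for IL4R KO + SMP8-IL4R against WT, limma adjusted p = 0.0941). Il1b, an inflammatory cytokine of myeloid cells, was 9.61 and 8.66 in IL4R KO + SMP8-IL4R, 9.15 and 8.84 in IL4R KO, and 9.58 and 9.78 in WT. Its IL4R KO + SMP8-IL4R pools straddled the lower WT value, and the difference of -0.68 between IL4R KO and WT did not pass (limma adjusted p = 0.314).

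The IL-36 receptor gene Il1rl2 was the receptor member that passed. The dimmer of its 2 probe sets gave 6.73 and 6.82 in IL4R KO + SMP8-IL4R, 7.06 and 7.11 in IL4R KO, and 7.48 and 7.39 in WT. The 3 groups did not overlap, and IL4R KO + SMP8-IL4R was lowest. The difference from WT was -0.66 ± 0.08 for IL4R KO + SMP8-IL4R (limma adjusted p = 0.0174) and -0.35 ± 0.08 for IL4R KO (adjusted p = 0.107). The call was lost without any 1 of the IL4R KO + SMP8-IL4R or WT pools, with differences from -0.71 to -0.61. Its brighter probe set, which is of a kind that may bind related transcripts, gave 7.96 and 7.99 in IL4R KO + SMP8-IL4R, 7.98 and 7.98 in IL4R KO, and 8.45 and 8.28 in WT. Its differences from WT were -0.39 for IL4R KO + SMP8-IL4R and -0.38 for IL4R KO, and neither passed (limma adjusted p = 0.112 and 0.0990). Of the IL-36 ligands, Il1f8 (IL-36 beta) gave -0.27 and -0.32 in the same comparisons, Il1f6 (IL-36 alpha) -0.11 and -0.17, and Il1f9 (IL-36 gamma) 0.12 and 0.29, and none passed.

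Il7r, the IL-7 receptor chain of lymphocytes, was lowest in IL4R KO + SMP8-IL4R on both of its probe sets. The brighter gave 8.88 and 8.72 in IL4R KO + SMP8-IL4R, 9.28 and 9.27 in IL4R KO, and 9.05 and 9.20 in WT. Against IL4R KO the differences were -0.48 ± 0.09 and, on the dimmer, -0.51 ± 0.10, and neither passed (limma adjusted p = 0.260 and 0.264). The mean of 8 T cell markers was 7.46 and 7.45 in IL4R KO + SMP8-IL4R, 7.39 and 7.95 in IL4R KO, and 7.20 and 7.36 in WT. By group means none of these 8 markers was higher in IL4R KO + SMP8-IL4R than in IL4R KO. The T cell mean of IL4R KO pool 1 (7.39) was nonetheless below both IL4R KO + SMP8-IL4R pools, and only pool 2 (7.95) lay above them. The part of T cell content in the Il7r values was not tested. Il7, the ligand, had 2 probe sets, with differences of 0.31 and 0.03 between IL4R KO + SMP8-IL4R and IL4R KO, neither of which passed.

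Il17ra, the chain shared by receptors for IL-17A and IL-25, lay above WT in the receptor-deficient arrays on both probe sets. The brighter gave 9.09 and 8.86 in IL4R KO + SMP8-IL4R, 9.03 and 8.98 in IL4R KO, and 8.65 and 8.57 in WT. The lowest receptor-deficient value was 8.86 and the highest WT value 8.65. The difference between IL4R KO and WT was 0.39 on both probe sets and did not pass (limma adjusted p = 0.132 and 0.164). Il17rb, which pairs with it for IL-25, ranged only from 5.61 to 5.76. Il17re, the epithelial receptor for IL-17C, gave -0.28, -0.06 and -0.05 on its 3 probe sets between IL4R KO and WT.

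Receptors for type 2 and lymphoid cytokines had mostly small differences. Il31ra, the IL-31 receptor chain, gave -0.60 ± 0.13 between IL4R KO and WT on its dimmer probe set (limma adjusted p = 0.0967) but -0.05 on the brighter. Il12rb2, a receptor chain for IL-12, gave -0.38, and Il2ra, the high-affinity IL-2 receptor chain, 0.38 and 0.15, and none passed. The dimmer Il31ra probe set lay below the lower quartile in the receptor-deficient arrays, and Il12rb2 and the dimmer Il2ra probe set in all 6. Il5ra, the eosinophil receptor chain for IL-5, ranged from 4.08 to 4.45, and Il9r from 4.95 to 5.13, all below the lower quartile. The 5 probe sets of Il1rap, the accessory chain for IL-1, IL-33 and IL-36, differed by -0.12 to 0.09 between IL4R KO and WT. Il6st, the shared signalling chain for IL-6, differed by -0.16 to -0.10 on its 4 probe sets, none passing.

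Some members differed more between pools of 1 genotype than between genotypes. They were chosen after their values were seen. Il1r2, a decoy receptor for IL-1 carried by neutrophils, was 7.77 and 7.07 in IL4R KO + SMP8-IL4R, 9.40 and 7.46 in IL4R KO, and 7.29 and 7.47 in WT. Only IL4R KO pool 1 stood out, and without IL4R KO pool 2 this gene passed between IL4R KO and WT in limma. Il1rn, the IL-1 receptor antagonist, on 1 of its 3 probe sets was 8.86 and 7.48 in IL4R KO + SMP8-IL4R, 8.59 and 7.92 in IL4R KO, and 8.06 and 8.08 in WT. Pool 1 was the higher of the pair in both receptor-deficient groups, as for the neutrophil markers, and the part of neutrophil content was not tested. Over all arrays its difference for IL4R KO + SMP8-IL4R was -0.08 against IL4R KO and 0.10 against WT. With 1 array left out the first ran from -0.78 to 0.61 and the second from -0.59 to 0.79, in each case with the lowest value without IL4R KO + SMP8-IL4R pool 1 and the highest without its pool 2.

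Il2rb and Il16 differed between the IL4R KO pools. Il2rb, the receptor chain for IL-2 and IL-15, on 1 of its 2 probe sets was 7.53 and 7.38 in IL4R KO + SMP8-IL4R, 7.38 and 7.91 in IL4R KO, and 7.20 and 7.11 in WT. Il16, a T cell attractant, on the brightest of its 4 probe sets was 9.01 and 8.92 in IL4R KO + SMP8-IL4R, 8.97 and 9.50 in IL4R KO, and 8.50 and 8.76 in WT. Both were highest in IL4R KO pool 2, where the T cell and NK cell marker means were also highest, and the part of lymphocyte content was not tested. Il7r did not share this, at 9.28 and 9.27 in the IL4R KO pools on its brighter probe set. On these Il2rb and Il16 probe sets the differences between IL4R KO and WT were 0.49 and 0.60, and neither passed (limma adjusted p = 0.231 and 0.183). Without IL4R KO pool 1 they were 0.75 and 0.87. The remaining Il16 probe sets gave 0.43, 0.35 and 0.14 between IL4R KO and WT, none passing (limma adjusted p = 0.15, 0.254 and 0.432). On all 4 Il16 probe sets both IL4R KO pools lay above both WT pools. The brighter Il2rb probe set was 7.34 and 7.32 in IL4R KO + SMP8-IL4R, 7.41 and 7.62 in IL4R KO, and 7.43 and 7.48 in WT. It differed by only 0.06 between IL4R KO and WT (limma adjusted p = 0.785). Il18bp, the IL-18 binding protein (-0.16), and the oxidase Il4i1 (0.17) did not pass between IL4R KO and WT (limma adjusted p = 0.464 and 0.517). Il1f5, an antagonist at the IL-36 receptor, gave -0.18 and 0.06 on its 2 probe sets in that comparison (limma adjusted p = 0.385 and 0.746). Between IL4R KO + SMP8-IL4R and WT it gave -0.26 and -0.01 (limma adjusted p = 0.260 and 0.962).

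**Figure D3:**
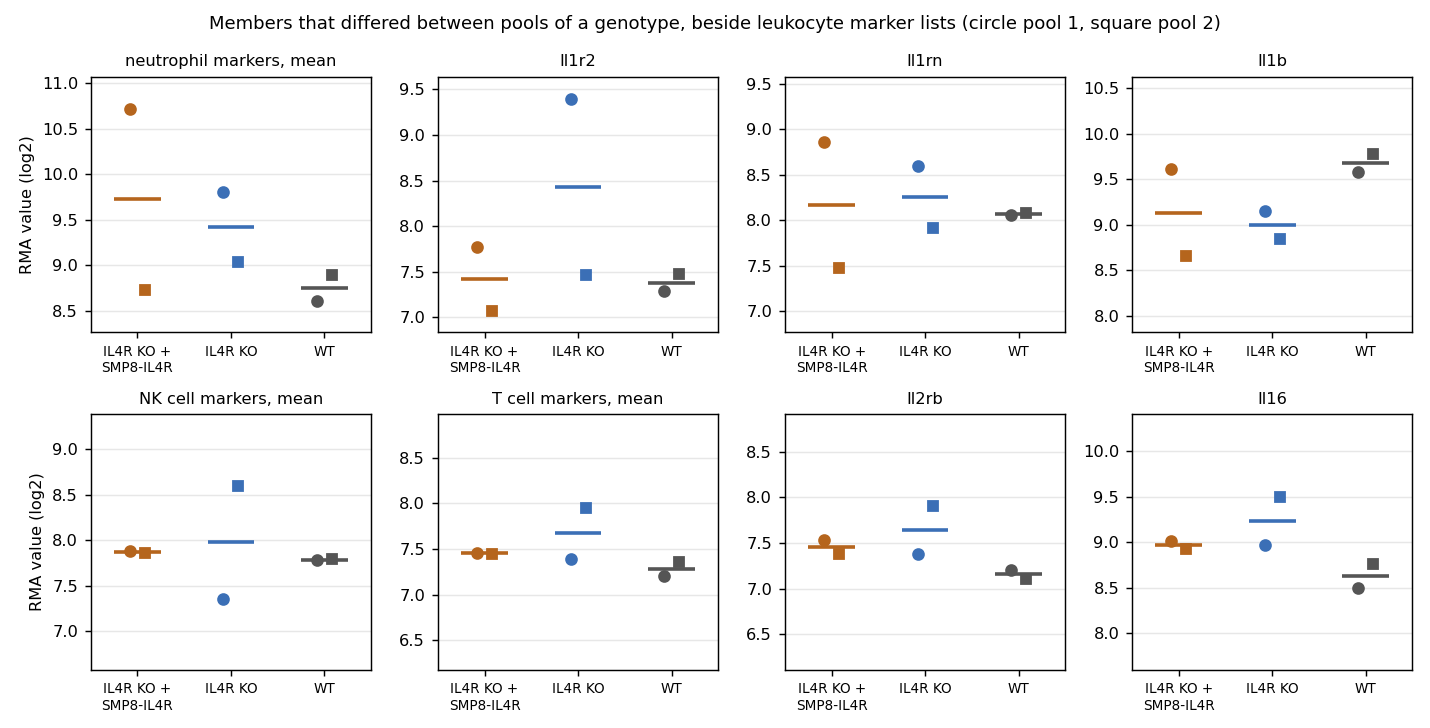
RMA values (log2, vertical axes spanning the same range) of 5 member probe sets and of the mean of 3 leukocyte marker lists in IL4R KO + SMP8-IL4R, IL4R KO and WT lungs; circles are pool 1, squares pool 2 and lines group means. Il1rn is high in pool 1 of both receptor-deficient groups like the neutrophil mean, and Il2rb and Il16 are highest in IL4R KO pool 2 like the NK cell and T cell means.

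Few genes that act with these cytokines passed. Of 21 probe sets of JAK kinases and STAT factors, none passed in any comparison in limma. At an unadjusted p under 0.05, IL4R KO + SMP8-IL4R had 0 higher and 1 lower against IL4R KO and 0 of either against WT, and IL4R KO had 4 higher and 2 lower against WT. Of 33 probe sets of adaptors and kinases below IL-1 family and IL-17 receptors, 1 passed, and the unadjusted counts in the same order were 0 higher and 2 lower, 0 and 4, and 0 and 3. It was a probe set of Nfkbiz, a nuclear cofactor of NF-kB induced by these receptors, at 9.55 and 9.38 in IL4R KO + SMP8-IL4R, 9.66 and 9.59 in IL4R KO, and 10.11 and 9.99 in WT. Its difference between IL4R KO + SMP8-IL4R and WT was -0.58 (limma adjusted p = 0.0462), while the other probe sets of this gene gave -0.44 and 0.09 (limma adjusted p = 0.0676 and 0.835). Of 15 probe sets of cytokine-processing genes, 1 passed, and the unadjusted counts were 1 higher and 0 lower, 1 and 4, and 0 and 6. It was a probe set of the membrane protease Adam10, with a difference of -0.44 between IL4R KO and WT (limma adjusted p = 0.0442), and the other 3 gave -0.55 to -0.29. Of 28 probe sets of partner genes without an Il symbol, none passed in limma, with unadjusted counts of 4 higher and 1 lower, 5 and 3, and 3 and 3. Over all probe sets the unadjusted shares were 5.97% higher and 5.37% lower against IL4R KO, 7.46% and 7.88% for IL4R KO + SMP8-IL4R against WT, and 7.88% and 8.17% for IL4R KO against WT. Among the partner genes Tslp, an epithelial type 2 alarm cytokine, was 6.97 and 6.98 in IL4R KO + SMP8-IL4R, 6.84 and 6.92 in IL4R KO, and 6.54 and 6.57 in WT, the direction of Il18 and not of Il33 (limma adjusted p = 0.0623 for IL4R KO + SMP8-IL4R against WT).

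Of the IL-4 and IL-13 receptor chains left out of the count, the decoy chain Il13ra2 passed. It was 5.36 and 5.85 in IL4R KO + SMP8-IL4R, 5.61 and 5.59 in IL4R KO, and 6.91 and 6.89 in WT, with differences from WT of -1.29 for IL4R KO + SMP8-IL4R and -1.30 for IL4R KO (limma adjusted p = 0.0149 and 0.0129).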

How the data were processed

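Each array read an RNA pool of 4 mice on the Affymetrix mouse 430 2.0 design. The deposited log2 values were made with RMA (background correction, quantile normalization and probe summary), per the submitters' processing notes, and its version is not given in the sources used here. RMA compresses low signals, so differences of dim genes may be understated. Arrays have no depth, and their number limits the precision. Of 45101 probe sets, 64 array controls were left out and no filter on low values was set. Symbols came from the platform annotation, and 106 of 106 member probe sets matched RefSeq genes (GRCm38.p6) by Entrez identifier with 0 changes. Another 3 probe sets with several symbols were not counted.

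The 3 genotypes were fitted in limma 3.58.1 (R 4.3.3) over all 45037 probe sets, with 1 mean per group, a shared spread (3 residual and 3.72 prior degrees of freedom) and Benjamini-Hochberg adjustment. All adjusted p-values are from this fit unless another is named. The pipeline was tested on simulated data. With 2 arrays a group an exact permutation test cannot give a two-sided p below 0.333. The p-values measure the spread between pools.

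The members and gene lists were chosen with earlier results of these data known. Named genes were all passing members, the 5 ligand and 5 receptor probe sets with the lowest p in each comparison, the type 2 ligands and receptors and the inhibitors. The IL-33 receptor gene Il1rl1 was planned among these receptors but had no member probe set. Il1b, Il1r2, Il2rb, Il16, the IL-36 ligands, Il6st and Tslp were added after their values were seen. Alternatives covered filters, 1 probe set a gene, an intensity trend, centring, a replicate block, each array left out, both hepatocyte-rich arrays left out and fits of 2 groups.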

Additional observations from a re-analysis of the deposited data

How the results depend on the processing

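Il18 passed in both comparisons with WT under every alternative run, with differences of 1.35 to 1.57 for IL4R KO and 1.52 to 1.64 for IL4R KO + SMP8-IL4R when 1 array was left out, and so did Il33 between IL4R KO and WT (-1.31 to -1.17). When 1 array was left out, the number of members passing ran from 2 to 5 between IL4R KO and WT and from 1 to 3 between IL4R KO + SMP8-IL4R and WT, and it stayed at 0 between IL4R KO + SMP8-IL4R and IL4R KO. A lone array was then assumed to vary like the other groups. The 5 without IL4R KO pool 1 added probe sets of Il16 and Il2rb. The same fits called 127 to 1401, 102 to 1064 and 0 to 96 of all probe sets, against 710, 470 and 7. With a replicate block 3, 4 and 0 members passed, Il31ra being added at -0.60 (adjusted p = 0.0290) and -0.55 (adjusted p = 0.0495). Deviations of arrays with the same number correlated at 0.0526, -0.0668 and -0.346, so no positive pairing was seen. Pools also differed in cell type markers, so these values cannot exclude a batch shared by arrays of the same number. With 2 groups in the fit, Il6 passed between IL4R KO and WT (adjusted p = 0.00612). No class median moved by more than the spread between pools. Signal near or under the lower quartile limits what can be seen for Il4, Il5, Il13, Il25, Il17a, Il23a, Il12rb2, Il2ra, Il5ra and Il9r. The same holds for the dimmer Il7, Il17d and Il31ra probe sets, the dimmest of Il1rap and, in 3 receptor-deficient arrays, Il6.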

Other observations

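A probe set that the annotation gives to Il4i1b and Il4i1 together was not counted among the members. It read 8.06 and 7.12 in IL4R KO + SMP8-IL4R, 7.44 and 7.86 in IL4R KO, and 8.32 and 8.39 in WT. Its differences from WT were -0.76 and -0.70 and did not pass (limma adjusted p = 0.289 and 0.306), and the pools of each receptor-deficient genotype lay apart.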
